A study of Homo sapiens with 30 samples.

Results

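Homeobox genes outside the HOX clusters encode transcription factors that pattern the embryo, and 57 of them were followed here through ChIP-seq peak lists of H3K27me3 and H3K9me3, a pair of repressive histone marks, in HEK293T cells. HEK293T is an established line derived from human embryonic kidney and expresses the SV40 large T antigen. The members were chosen by name, with the HOX, PAX and IRX genes left out, and all 57 were matched among 20090 protein-coding genes on chromosomes 1 to 22 and X. They comprise 26 NK-like and 8 HOX-like genes of the ANTP class, 11 genes of the LIM class, 9 of the PRD class and 3 of the SINE class. None lies on chromosome X, so the 19222 protein-coding genes on chromosomes 1 to 22 serve as the background below.

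H3K27me3 is placed by Polycomb repressive complex 2, and in many cell types it covers CpG-rich promoters of silent developmental regulators, homeobox genes among them. H3K9me3 is placed by other methyltransferases and is known for repeats and heterochromatin rather than for such promoters. Long noncoding RNAs that associate with these marks were depleted in the study, which asked where in the genome the marks then changed.

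Cells were transfected with antisense oligonucleotides (ASOs) and collected after 48 h. H3K27me3 was profiled after a control ASO without a target (NC), after depletion of LINC00641 (ΔLINC00641) and after depletion of SETD5-AS1 (ΔSETD5-AS1), and H3K9me3 after NC and after depletion of LINC00662 (ΔLINC00662). The 30 samples form 10 groups of 3, 5 of ChIP and 5 of input. The file headers name a single ASO for LINC00641 and for SETD5-AS1 and a mix of ASOs for LINC00662, and all groups are the same line with no other genotype given. Replicates were merged before peaks were called, so each ChIP group is a single list, replicate error is unknown, and what is compared are pooled lists. The estimated depth of the 5 lists was 34.6 M to 45.0 M fragments (M, mega), and a median peak held 18 to 22 fragments at its summit. Peak lists hold no RNA, so neither the depletion nor the cell type was checked against expression.

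For each gene, a peak counted when it overlapped the gene span plus 5 kb on each side, and it was a promoter peak when it came within 1 kb of the gene start. Covered length is the part of that window under peaks. Marked means here that a peak was called, and the lack of a called peak does not show that the mark was absent. Fold enrichment is the fragments at a summit over the local input. Intervals are 95% intervals that cover counting error only. Those of shares treat genes or peaks as independent draws.

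Reference sequences of 4 members are shown first, to show the base composition of sites with and without a peak (hg19, 5′ to 3′ on the strand of the gene, with each CG dinucleotide in capitals). The NKX6-2 window is the 300 bases around the strongest H3K27me3 promoter peak in NC, and that of EMX1 is around the strongest one in ΔLINC00641, where NC had none. The EVX2 window is around an H3K9me3 promoter summit of NC. EN1 had no peak of either mark in any list, and the 300 bases before its start are given.
NKX6-2 (H3K27me3 in 3 lists, 16 CG), chr10:134602513-134602812, minus strand: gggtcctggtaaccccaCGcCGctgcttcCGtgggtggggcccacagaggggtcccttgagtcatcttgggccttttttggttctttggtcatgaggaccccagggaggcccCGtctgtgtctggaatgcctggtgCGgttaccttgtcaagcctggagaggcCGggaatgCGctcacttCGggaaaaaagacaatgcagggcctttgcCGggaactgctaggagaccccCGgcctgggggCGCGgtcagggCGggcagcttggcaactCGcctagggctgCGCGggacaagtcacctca
EMX1 (H3K27me3 in the knockdown lists, 15 CG), chr2:73142699-73142998, plus strand: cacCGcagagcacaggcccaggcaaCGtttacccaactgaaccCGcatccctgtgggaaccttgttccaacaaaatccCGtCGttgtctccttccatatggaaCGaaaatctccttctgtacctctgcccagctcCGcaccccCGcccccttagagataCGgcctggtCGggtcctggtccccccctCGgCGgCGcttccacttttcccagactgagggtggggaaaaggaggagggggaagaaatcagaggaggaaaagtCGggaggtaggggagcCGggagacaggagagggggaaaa
EVX2 (H3K9me3 in NC, 28 CG), chr2:176947896-176948195, minus strand: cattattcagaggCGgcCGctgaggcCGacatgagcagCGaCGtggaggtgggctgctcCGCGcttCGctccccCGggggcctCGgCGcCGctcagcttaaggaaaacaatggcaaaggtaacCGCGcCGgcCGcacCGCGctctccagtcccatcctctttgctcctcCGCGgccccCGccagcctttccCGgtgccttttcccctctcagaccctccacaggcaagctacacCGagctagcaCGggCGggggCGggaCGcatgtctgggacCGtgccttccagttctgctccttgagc
EN1 (no peak, 26 CG), chr2:119605225-119605524, minus strand: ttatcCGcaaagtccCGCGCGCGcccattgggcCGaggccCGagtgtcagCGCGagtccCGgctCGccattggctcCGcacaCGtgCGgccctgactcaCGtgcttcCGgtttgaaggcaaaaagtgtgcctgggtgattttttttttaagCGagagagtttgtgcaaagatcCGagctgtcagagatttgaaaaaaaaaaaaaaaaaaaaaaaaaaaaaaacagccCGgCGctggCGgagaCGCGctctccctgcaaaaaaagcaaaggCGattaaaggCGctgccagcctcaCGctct

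The NKX6-2 and EMX1 windows lie upstream of the gene, and that of EVX2 around an intronic summit. Over all summits of the NC list of H3K27me3 on chromosomes 1 to 22, such a window held a median of 3 CG (quartiles 2 and 5). The 300 bases before the start of EN1, which had no peak, held 26, more than the windows of NKX6-2 and EMX1. Those windows are centred elsewhere, on summits at −3012 and −540 bp from the start. In the 300 bases before the start, NKX6-2 held 40 CG and EMX1 33, more than EN1. BARHL1 (24), LHX5 (20), GSX1 (16) and LHX2 (7), which had an H3K27me3 promoter peak in all 3 lists, held fewer than EN1. EN2, with no peak of either mark in any list, held 54. The homeodomain core motif TAATTA, which is its own reverse complement, occurred in none of the 4 windows. It was present in 6.45% of the NC summit windows.

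The number of CG dinucleotides did not separate members with an H3K27me3 promoter peak from those without one. Within 1 kb of the gene start, the median over the 57 members was 126 CG at a GC content of 59.97%, against 91 CG and 55.1% over the 19222 background genes. The 11 members with an H3K27me3 promoter peak in some list had a median of 132 CG (range 29 to 288), and the 46 without one had 124.5 (range 42 to 286). Both ends of the first range carried a peak in all 3 lists, since LHX2 had 29 CG and NKX6-2 had 288. TAATTA occurred in the 300 bases before the start of 5 members (8.77%) and of 4.44% of background genes.

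Most members had no H3K27me3 peak, and neither had most background genes. In NC, 7 of 57 members had a promoter peak (12.3%, interval 6.08 to 23.2), against 6.78% of background genes. There were 10 in ΔLINC00641 (17.5%, 9.82 to 29.4; background 7.15%) and 8 in ΔSETD5-AS1 (14.0%, 7.29 to 25.3; background 6.55%). The interval of the members held the background share in NC and not in the knockdown lists. It treats genes chosen by name as random draws, so it is no test of an excess. The count in ΔSETD5-AS1 fell to 5 within 500 bp of the start, the same as in NC, and to 4 with a −log10 q of 5 or more, below the 6 of NC. A promoter peak in all 3 lists was found at 5 members, BARHL1, GSX1, LHX2, LHX5 and NKX6-2 (background 4.96%), and one in at least 1 list at 11 (background 8.92%). Among the 4425 background genes with 110 to 152 CG around the start, the middle range of the members, the share was 6.33%, 7.1% and 6.15% in the 3 lists.

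**Figure D1:**
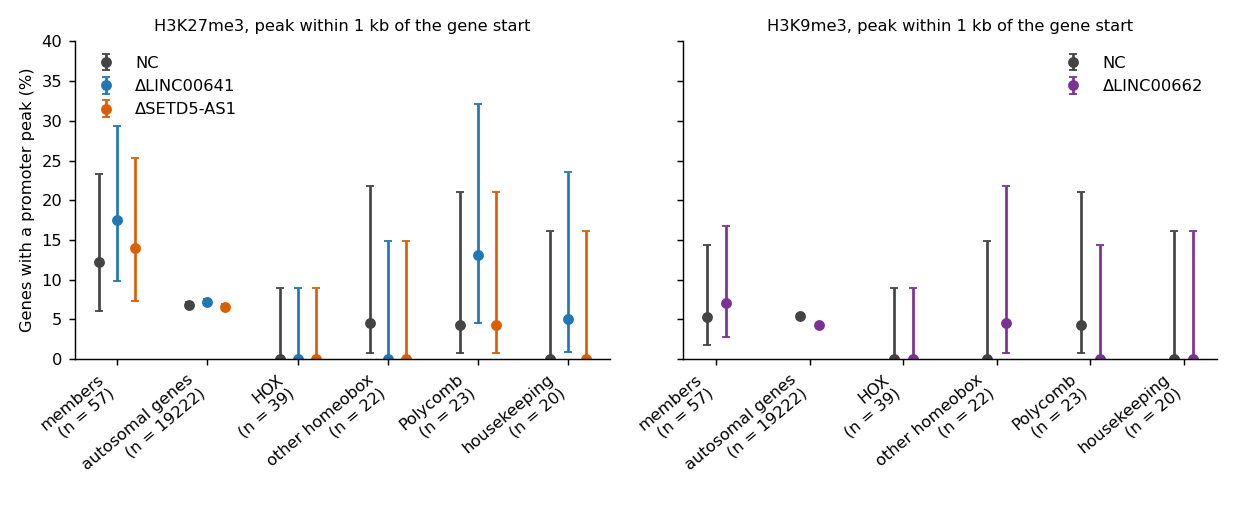
Share of genes (%) with a peak within 1 kb of the gene start, for H3K27me3 (left) and H3K9me3 (right), in the 57 members, the background and 4 comparison lists. Points are the pooled lists and bars are Wilson 95% intervals; the members reach 17.5% for H3K27me3 in ΔLINC00641, while the 39 HOX genes are at 0 in every list.

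The HOX genes, the best known homeobox genes, had fewer peaks still. None of 39 HOX genes had a promoter peak of either mark in any list, and the Wilson interval of such a 0 reaches 8.97%, which overlaps that of the members in NC. Of 22 homeobox genes that are used in many tissues, 1 had an H3K27me3 promoter peak in NC and none in the knockdown lists. Of 23 genes for Polycomb subunits, 1, 3 and 1 had one in NC, ΔLINC00641 and ΔSETD5-AS1, and of 20 housekeeping genes 0, 1 and 0.

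Anywhere in the window, an H3K27me3 peak was found at 13, 17 and 14 members in NC, ΔLINC00641 and ΔSETD5-AS1, which is 22.8%, 29.8% and 24.6% against a background of 14.6%, 14.6% and 14.9%. Background genes with windows of like GC content (49.98 to 56.4%) had a peak in 10.2%, 11.3% and 10.1%. Window lengths were not matched in either comparison. In NC, 44 of 57 members and 16418 of 19222 background genes had none. The share of background genes with none in all 3 lists was not computed. Of the members, 37 had none in any of the 3 lists. They are ALX1, ALX4, BARHL2, BARX1, CDX1, CDX2, DLX3, DLX4, DLX5, DLX6, EMX2, EN1, EN2, EVX2, GBX2, GSC, GSX2, HMX2, HMX3, ISL1, ISL2, LBX1, LHX4, LHX8, MNX1, NKX2-1, NKX2-2, NKX2-5, NKX6-1, OTX1, OTX2, PITX1, SIX2, SIX3, SIX6, TLX1 and TLX3. In NC, the nearest H3K27me3 peak lay over 50 kb from the start of 40 members (70.2%; background 76.3%).

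By class, the LIM genes held the largest share of marked members. Of the 11 LIM class genes, 6 had an H3K27me3 peak in NC (54.5%, 28.0 to 78.7), namely LHX2, LHX3, LHX5, LHX9, LMX1A and LMX1B. Of the 26 NK-like genes 5 had one, of the 8 HOX-like genes 1, of the 9 PRD class genes 1 and of the 3 SINE class genes 0. A longer window can hold more peaks, and those of LMX1A and LMX1B were 164849 and 97105 bp long. By promoter peak in NC, 3 of the 11 LIM genes had one, as did 3 of the 26 NK-like and 1 of the 8 HOX-like genes. None of the PRD or SINE class genes did. These counts are small, and the classes were not tested against each other.

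LHX5, a LIM class factor of forebrain and spinal cord neurons, carried the widest H3K27me3 cover of all members. It lies on the minus strand. Peaks covered 11.7 kb of its window in NC, 12.2 kb in ΔLINC00641 and 10.3 kb in ΔSETD5-AS1, which is 57.7%, 60.1% and 51.0% of the window. In NC a single peak of 7808 bp ran through the gene body, and 2 further peaks of 3349 and 4421 bp lay upstream. The promoter peak with the largest −log10 q had a fold enrichment of 6.09 in NC (interval 4.41 to 8.21) and 4.48 in ΔSETD5-AS1 (3.23 to 6.07), with summits at 1578 and 2185 bp from the start. In ΔLINC00641 that peak lay at another place, with its summit at −3422 bp and a fold enrichment of 7.63, where NC had 5.78. At the NC promoter summit, ΔLINC00641 had a separate peak of 2.48-fold with its summit at 1653 bp, beside one of 7.44-fold further into the gene.

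GSX1, a HOX-like factor of neural progenitors, was covered over 5.43 kb in NC, 5.24 kb in ΔLINC00641 and 4.76 kb in ΔSETD5-AS1 (44.2%, 42.7% and 38.8% of its window). Its peaks lay on both sides of the start, with summits at −522 and 725 bp from the start in NC. The fold enrichment of the upstream peak was 5.64 (NC), 6.86 (ΔLINC00641) and 5.10 (ΔSETD5-AS1). The downstream one had 6.25, 8.02 and 6.52. At each of the sites ΔLINC00641 was highest, while ΔSETD5-AS1 was lower than NC at the upstream and higher at the downstream site.

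NKX6-2, which acts in the ventral neural tube and in oligodendrocytes, had 1 peak in each list, entirely upstream of the gene. The peak was 3312 bp long in NC, 3556 bp in ΔLINC00641 and 2994 bp in ΔSETD5-AS1. It had the largest −log10 q of all member promoter peaks in each list (21.9, 34.6 and 23.4), and its fold enrichment was 6.09 (4.59 to 7.94), 6.84 (5.40 to 8.55) and 5.69 (4.37 to 7.28). The NC peak held 354 CG.

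LHX3, a factor of pituitary and motor neuron development, had 7 NC peaks, 7 of ΔLINC00641 and 9 of ΔSETD5-AS1 but no promoter peak. The covered length was 6.35, 7.57 and 6.00 kb (33.6%, 40.1% and 31.8%). The peak nearest to its start lay 2338, 2251 and 2301 bp inside the gene, and the peaks continued past its end. Where the starts of all annotated transcripts were counted, LHX3 had a promoter peak in each list, and the members with one numbered 9, 12 and 9.

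**Figure D2:**
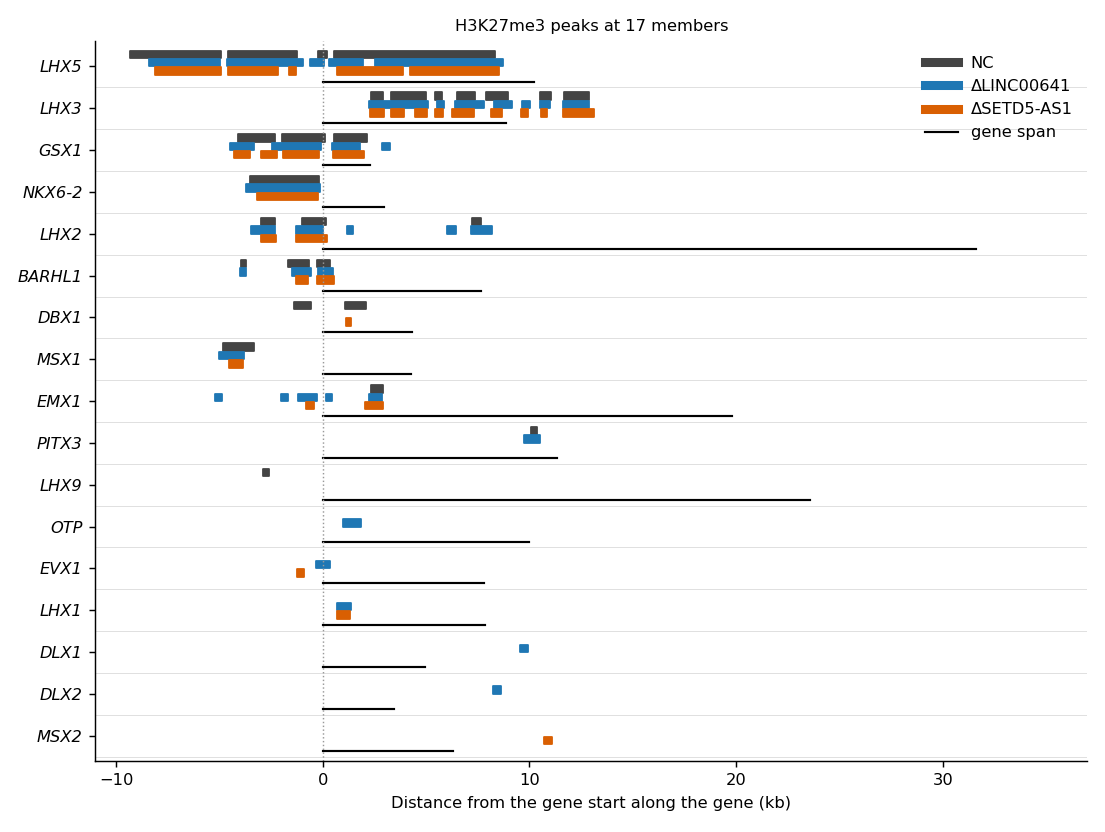
H3K27me3 peaks at the 17 marked members with windows under 45 kb, as bars along the distance from the gene start (kb, positive into the gene), for NC, ΔLINC00641 and ΔSETD5-AS1; the black line is the gene span. The wide cover of LHX5, the gene-body peaks of LHX3 and the upstream peak of NKX6-2 recur in all 3 lists, while the genes in the lower part have a peak in some lists only.

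LHX2, a factor of eye and forebrain development, had a promoter peak in each list. Its fold enrichment was 5.20 in NC (3.68 to 7.15), 6.07 in ΔLINC00641 (4.63 to 7.84) and 3.71 in ΔSETD5-AS1 (2.69 to 5.0). BARHL1, a factor of hair cells and cerebellar neurons, had a promoter peak of 4.77-fold (3.43 to 6.48), 6.59-fold (4.75 to 8.91) and 2.45-fold (1.70 to 3.43). At BARHL1 the ΔSETD5-AS1 value was thus below both others, with a local input there of 2.81 times the genome-wide level against 1.92 in NC and 1.38 in ΔLINC00641.

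The remaining marked members had shorter peaks. MSX1, a factor of craniofacial development, had 1 peak in each list at about the same place upstream, of 1503, 1183 and 698 bp. LMX1A, a roof plate and midbrain factor with the longest window (164849 bp), had 5, 3 and 7 short intronic peaks that covered 3.57, 1.59 and 3.35 kb. PITX3, a lens and midbrain factor, had an intronic peak of 300 bp in NC and 757 bp in ΔLINC00641 and none in ΔSETD5-AS1. LHX9, a factor of the developing gonad, had a peak of 293 bp in NC alone.

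**Figure D3:**
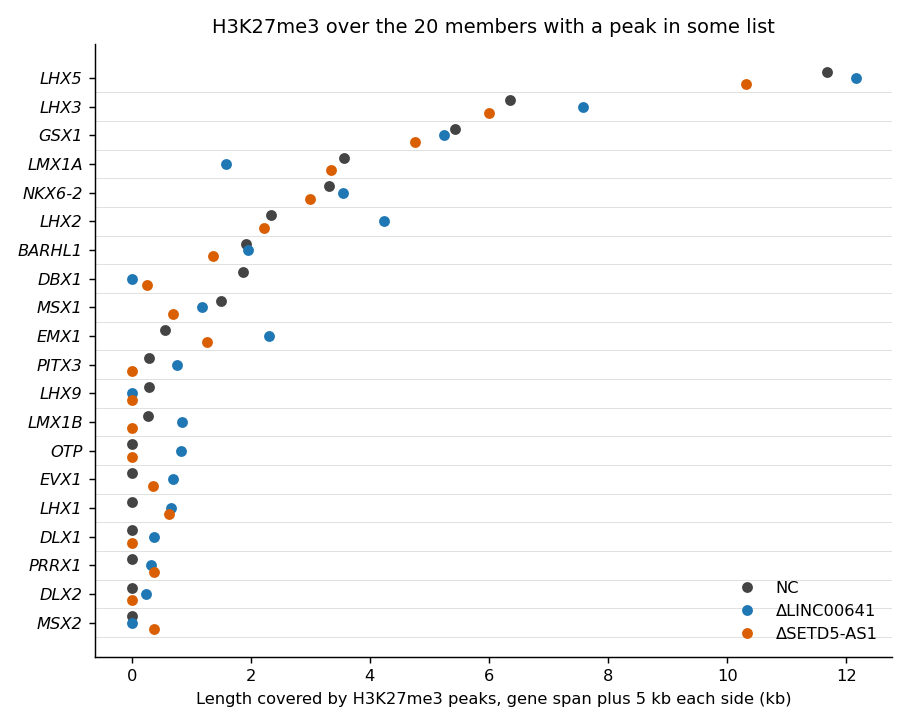
Length (kb) covered by H3K27me3 peaks in the gene span plus 5 kb on each side, for the 20 members with a peak in some list; points are NC, ΔLINC00641 and ΔSETD5-AS1. LHX5 reaches 12.2 kb and LHX3 7.57 kb in ΔLINC00641, while 7 members are at 0 in NC.

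Upon depletion of LINC00641, 6 of the 7 members with a promoter peak in NC had one as well (background 82.7%), and 4 of the other 50 had one that was absent in NC (background 1.65%). The 6 were BARHL1, GSX1, LHX2, LHX5, LMX1B and NKX6-2. DBX1, a factor of spinal cord interneurons, had a promoter peak of 3.48-fold in NC (2.31 to 5.03) and no peak in its window in ΔLINC00641. Its covered length was 1.87 kb in NC, 0 in ΔLINC00641 and 0.267 kb in ΔSETD5-AS1, the largest fall in covered share in both knockdown lists.

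The 4 members with a promoter peak in ΔLINC00641 and not in NC were EMX1, EVX1, LHX1 and OTP. EMX1, a factor of the cerebral cortex, had 1 intronic peak in NC and 5 peaks in ΔLINC00641, with a promoter peak of 3.56-fold (2.52 to 4.89). EVX1, a factor of the primitive streak and of spinal interneurons, had one of 2.75-fold (1.89 to 3.89), LHX1, a factor of head and kidney development, one of 3.08-fold (2.22 to 4.19), and OTP, a hypothalamic factor, one of 2.45-fold (1.61 to 3.60). All 4 had 24 to 39 fragments at the summit, and the local input there was 2.43 to 3.16 times the genome-wide level. The part of this input level in the result was not tested.

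When the promoter peak with the largest −log10 q was taken in each list, the fold enrichment was higher in ΔLINC00641 than in NC at all 6 members with one in both, and no interval left out 0. At LHX5 and GSX1 these peaks did not overlap. The median log2 ratio was 0.39 over the 6 members and 0.12 over the 1078 background genes of this kind, 9.37% of which had an interval above 0 and 2.88% one below. Of these background genes, 667 were higher in ΔLINC00641 and 411 lower. When each NC promoter peak was instead set against the overlapping peak with the nearest summit, a pairing chosen after the values were seen, 6 of 9 were higher in ΔLINC00641 and 3 lower, with a median of 0.22. This pairing was not computed over background genes. The log2 ratio was 0.56 at LMX1B (−0.26 to 1.37), 0.36 and 0.28 at the 2 GSX1 peaks, and 0.47 (−0.17 to 1.10) and −0.09 at the 2 BARHL1 peaks. At the gene-body peak of LHX5 it was −1.30 (−1.99 to −0.60), the only interval that left out 0. The summits there held 41 fragments in NC and 28 in ΔLINC00641, at a local input of 1.53 and 2.83 times the genome-wide level. The interval does not cover error in the input, and the part of the input in this ratio was not tested. The tenth NC promoter peak, at DBX1, had no partner.

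The covered share was higher in ΔLINC00641 than in NC at 14 of the 19 members with a peak in either list, and lower at 5. Over background genes it was higher at 44.5% and lower at 55.5%. The largest rises were at LHX3 (6.48 percentage points), EMX1 (5.87) and LHX2 (4.59, from 2.34 to 4.25 kb), and the largest falls at DBX1 (−13.0), MSX1 (−2.24) and GSX1 (−1.53). Summed over the 57 members, the covered length was 39.4 kb in NC and 44.6 kb in ΔLINC00641, a ratio of 1.13, against 0.825 over background genes. The ΔLINC00641 list held 86099 peaks against 102921 in NC, and the part of list size in the background ratio was not tested. GC content moved with this comparison. The 4139 other genes with windows of like GC content had a ratio of 1.07 and a higher share at 61.1% of their marked genes, and the part of GC content in the result for the members was not tested.

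DLX1 and DLX2, neighbouring factors of forebrain interneurons, shared a single peak of 391 bp in ΔLINC00641, which lies between them at 2.64-fold and was absent from both other lists. It counts for both genes.

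Upon depletion of SETD5-AS1, 5 of the 7 members with a promoter peak in NC had one (background 78.5%), and 3 of the other 50 had one that was absent in NC (background 1.31%). The 3 were EMX1 at 2.56-fold (1.75 to 3.61), EVX1 at 2.72-fold (1.78 to 4.0) and LHX1 at 2.18-fold (1.54 to 3.01). The same 3 genes had a promoter peak in ΔLINC00641, but the NC list is shared by both comparisons. At EVX1 the peaks of the knockdown lists did not lie at the same place, with summits at 228 bp from the start in ΔLINC00641 and at −939 bp in ΔSETD5-AS1. DBX1 and LMX1B, a factor of limb and kidney podocytes, had no promoter peak. The NC peak at LMX1B was weak, at 2.39-fold with 21 fragments and 279 bp in length.

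**Figure D4:**
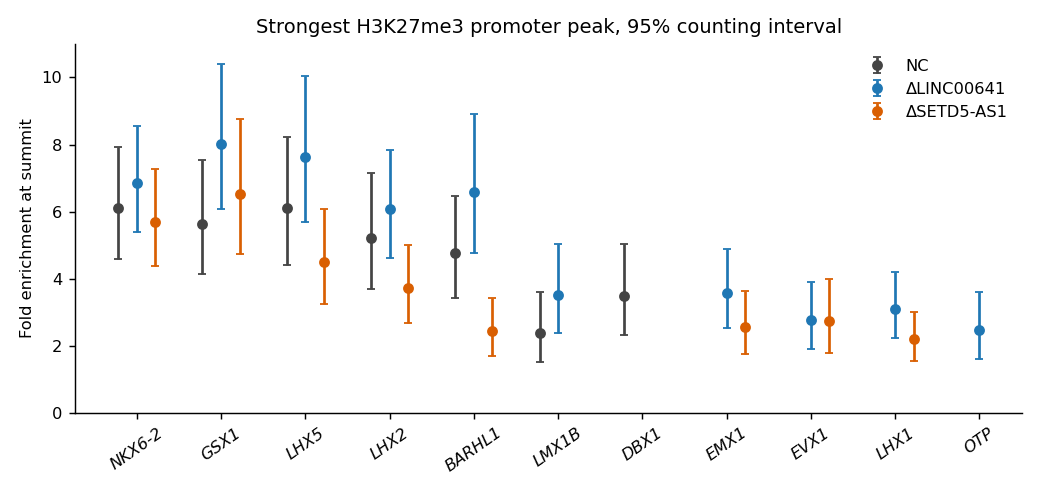
Fold enrichment over input at the summit of the H3K27me3 promoter peak with the largest −log10 q in each list, which at LHX5 and GSX1 did not overlap between all lists, for 11 members; bars are 95% counting intervals, and a missing point means no promoter peak. The 5 genes on the left have a peak in each list, and at BARHL1 the ΔSETD5-AS1 value of 2.45 lies apart from 4.77 in NC.

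For the promoter peak with the largest −log10 q in each list, the fold enrichment was lower than in NC at 4 of 5 members and higher at GSX1, where these peaks did not overlap. The median log2 ratio was −0.44, against −0.12 over the 1024 background genes of this kind. Of these background genes, 610 were lower in ΔSETD5-AS1 and 414 higher. At BARHL1 the log2 ratio was −0.96 with an interval of −1.64 to −0.29, the only one that left out 0. Among background genes, 8.79% had an interval below 0 and 2.44% one above. The ratio was −0.49 at LHX2 (−1.13 to 0.16), −0.44 at LHX5 (−1.07 to 0.19) and −0.10 at NKX6-2 (−0.63 to 0.43). Between overlapping peaks with the nearest summits, 6 of 7 were lower in ΔSETD5-AS1 and 1 higher, the downstream GSX1 peak at 0.06, with a median of −0.22. Background genes were not paired in this way.

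The covered share was lower in ΔSETD5-AS1 than in NC at 12 of 17 members and higher at 5, against 54.2% and 45.8% of background genes. The largest falls were at DBX1 (−11.2 percentage points), LHX5 (−6.70) and MSX1 (−5.64). The largest rises were at LHX1 (3.51), EMX1 (2.37) and MSX2 (2.32), a craniofacial factor with a peak of 378 bp downstream in this list alone. The summed covered length was 34.99 kb, a ratio to NC of 0.888, and over background genes the ratio was 0.884. The 4139 other genes with windows of like GC content had a ratio of 0.954 and a higher share at 45.4% of those with a peak. The part of GC content in the result for the members was not tested here either. PRRX1, a factor of limb mesenchyme, had a short peak far inside the gene in each knockdown list, of 328 bp in ΔLINC00641 and 374 bp in ΔSETD5-AS1, at different places.

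Single peaks at members were found again more often than the average peak, but those at members were also stronger and richer in GC. Of 33 H3K27me3 peaks of NC at members, 26 overlapped a peak in ΔLINC00641 (78.8%, interval 62.2 to 89.3) and 23 in ΔSETD5-AS1 (69.7%, 52.7 to 82.6). The 33 peaks lay at 13 members, with 7 at LHX3, and the intervals do not take this clustering into account. Without LHX3 the shares were 73.1% and 61.5%. Over all NC peaks on chromosomes 1 to 22 the shares were 51.6% and 55.0%. The peaks at members had a median GC content of 57.7%, against 45.2%, and a median −log10 q of 5.56, against 3.72. Among the 5126 NC peaks with both values in the middle range of the members, 71.9% and 67.5% were found again, which lies within both intervals of the members. Of the 19 stronger member peaks (−log10 q of 5 or more), 18 overlapped a peak in ΔLINC00641 and 16 in ΔSETD5-AS1, and of the 14 weaker ones 8 and 7 did. Over all NC peaks on chromosomes 1 to 22, the shares were 77.7% and 79.2% for stronger and 42.0% and 46.0% for weaker peaks. Each of these shares lies within the counting interval of the member peaks.

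Few members had an H3K9me3 promoter peak, and the intervals of their shares held the background share. In NC 3 had a promoter peak (5.26%, 1.81 to 14.4; background 5.37%), and in ΔLINC00662 4 did (7.02%, 2.76 to 16.7; background 4.3%). Anywhere in the window, 12 and 15 members had a peak, which is 21.1% and 26.3% against a background of 38.1% and 32.4%. Background genes with windows of like GC content had one in 14.9% and 11.9%. A longer window can hold more peaks, and window lengths were not matched in either comparison. The nearest H3K9me3 peak lay over 50 kb from the start of 15 members in NC (26.3%; background 38.3%). In ΔLINC00662 this was so for 17 members (29.8%; background 47.6%). None of the 26 NK-like genes had an H3K9me3 peak in ΔLINC00662, and 1 of them, BARHL2, had one in NC.

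SIX6, a factor of eye and pituitary development, was the only member with an H3K9me3 promoter peak in both lists. Its fold enrichment was 3.85 in NC, with 32 fragments at the summit, and 3.98 in ΔLINC00662, with 37, a log2 ratio of 0.05 (−0.64 to 0.73). Of the 586 background genes with such a pair of peaks, 5.8% had an interval above 0 and 7% one below. EVX2, a HOX-like gene beside the HOXD cluster, and LMX1A had a promoter peak in NC but not in ΔLINC00662, so 1 of 3 was kept (background 56.8%). At both genes a ΔLINC00662 peak outside 1 kb of the start overlapped the NC promoter peak, of 4.22-fold at EVX2 and 3.89-fold at LMX1A, and within 2 kb both had a peak in both lists. EVX2 had 5 peaks over 3.63 kb in NC, the widest H3K9me3 cover of all members, and 2 over 2.19 kb in ΔLINC00662. Its NC promoter peak had a fold enrichment of 3.16 and that of LMX1A 2.81.

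In ΔLINC00662, OTX2, a head and eye factor, had a promoter peak of 3.05-fold, OTP one of 2.78-fold and GSX2, a factor of the ventral forebrain, one of 2.71-fold, none of which was in NC (3 of 54; background 1.32%). Their summits held 22, 22 and 16 fragments. These are short peaks of 333, 630 and 436 bp.

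**Figure D5:**
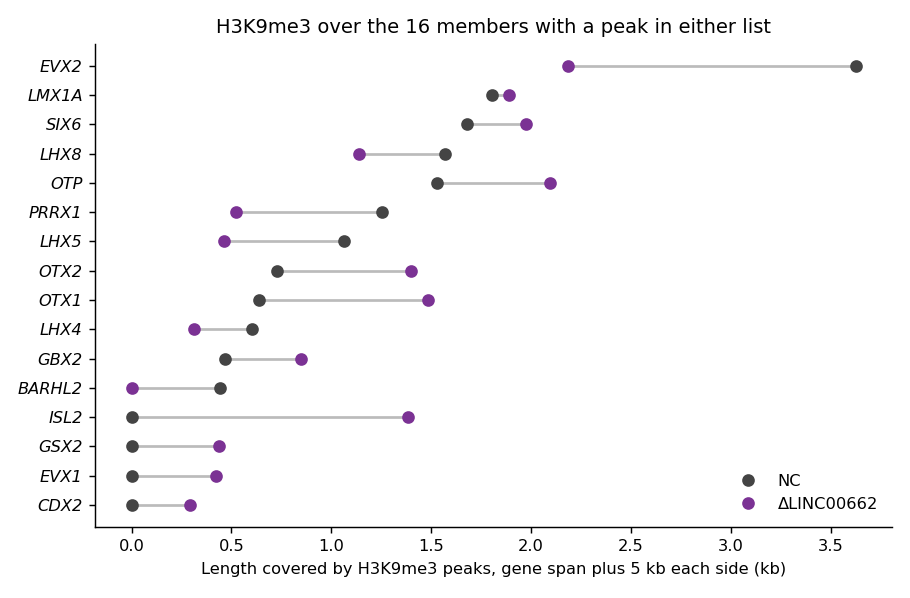
Length (kb) covered by H3K9me3 peaks in the gene span plus 5 kb on each side, for the 16 members with a peak in either list; points are NC and ΔLINC00662, joined by a line per gene. Cover is greater in ΔLINC00662 at 10 members and smaller at 6, with EVX2 falling from 3.63 to 2.19 kb.

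The covered share was higher in ΔLINC00662 than in NC at 10 of 16 members and lower at 6, while over background genes it was higher at 21.4% and lower at 78.6%. The median difference over the 16 was 1.87 percentage points, but −0.013 without the flanks and 0.22 with a −log10 q of 5 or more. The summed length was 15.4 kb in NC and 16.8 kb in ΔLINC00662, a ratio of 1.09 against 0.582 over background genes. In share of the window, the largest rises were at ISL2, a motor neuron factor (8.82 percentage points), OTX1 (4.76) and GSX2 (3.36), and the largest falls at EVX2 (−8.74), LHX5 (−2.98) and BARHL2 (−2.80). GC content moved with this comparison too. The 4139 other genes of like window GC content had a ratio of 0.778 and a higher share at 29.0%, and its part in the result was not tested. Of 25 NC peaks at members, 14 overlapped a peak in ΔLINC00662 (56.0%, 37.1 to 73.3), against 38.0% of all NC peaks on chromosomes 1 to 22 and 42.1% of those of like GC content and strength.

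Some members had peaks of both marks in their windows. In some list, 20 members had an H3K27me3 peak and 16 an H3K9me3 peak, 5 had both (EVX1, LHX5, LMX1A, OTP and PRRX1) and 26 had neither. The share of background genes with both was not computed, so whether these counts are low or high is not known. In NC, LHX5 and LMX1A had peaks of both marks. Over all lists, peaks of the marks overlapped each other at LHX5 and LMX1A, and at EVX1, OTP and PRRX1 they did not. At LHX5 the 2 H3K9me3 peaks of NC, of 582 and 483 bp, lay over the wide H3K27me3 peak of the gene body, at a local input of 2.10 and 2.2 times the genome-wide level.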

How the data were processed

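The study's methods state that adapters were removed with Cutadapt 3.3, that reads were mapped to hg19 by Bowtie2 2.4.2 and duplicates discarded with GATK, and that the BAM files of replicates were pooled before MACS2 2.2.7.1 called paired-end peaks. The files name input as the control, and whether it was pooled too is not stated. The authors deposited for each peak a fold enrichment, which is a ratio of summit fragments to local input, a −log10 p-value, a −log10 q-value and a whole-number score, which was not used for results. Fragments at each summit and the local input were solved from the fold and the −log10 p-value; all came out whole within 0.1, and the largest gap was 0.039. Depth was taken from the genome-wide input level and the shortest peak.

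Genes and their starts, 1 per gene, came from GENCODE 44 as lifted to GRCh37, which shares the coordinates of hg19 on the chromosomes used. Shares carry Wilson 95% intervals, and log2 ratios an interval from the summit fragments of both lists. Intervals cover counting error only, and PCR reads are not independent molecules. Ratios took, in each list, the promoter peak with the largest −log10 q. A pairing of overlapping peaks was added after the values were seen. Peaks overlapping by at least 1 bp were called found again. No test between groups was made. The members and all lists were chosen with earlier results of these data known. Full values were given to members with the strongest or a changing promoter peak, with the largest or smallest cover or change in cover, or with an H3K9me3 promoter peak. The functions were tested on simulated data. The tools were Python 3.11.15 with pysam 0.24.0, scipy 1.17.1, pandas 2.3.3 and numpy 2.4.6.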

Additional observations from a re-analysis of the deposited data

How the results depend on the processing

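No paired analysis was possible because each group is a single list of merged replicates, and for the same reason no replicate could be left out. The median covered share over all 57 members was 0 in each list under every alternative computed, so differences below are medians over members with a peak in either list. That difference was 1.88 percentage points in ΔLINC00641, −0.87 in ΔSETD5-AS1 and 1.87 in ΔLINC00662. It reversed for ΔLINC00662 without flanks, to −0.013, and became 1.02 with flanks of 10 kb. With a −log10 q of at least 5 it became 3.56, −4.12 and 0.22. For ΔSETD5-AS1 it was −1.41 with equal numbers of the strongest peaks, −0.13 with flanks of 10 kb, −0.29 with peaks within 1 kb joined, and −0.58 both without LHX5 and without LHX3 (these 2 chosen after seeing the data). Members with an H3K27me3 promoter peak in ΔSETD5-AS1 fell from 8 to 5 within 500 bp and to 4 with a −log10 q of at least 5. Members with an H3K9me3 promoter peak rose to 6 in NC and 8 in ΔLINC00662 within 2 kb, and with a −log10 q of at least 5 only 1 was left in ΔLINC00662. The median log2 ratio for ΔLINC00641 was 0.17 within 500 bp and 0.22 between overlapping peaks with the nearest summits (chosen after seeing the data). The cause of these shifts was not tested. The limit of 5 on local input tested nothing at the members, since none of their peaks exceeded 4.52.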
